A study of Mus musculus with 16 samples.

Results

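Panc02-SIY is a mouse pancreatic adenocarcinoma line that carries the model antigen SIY, and its tumors were grown under the skin of the right flank of C57BL/6J mice. The libraries described here compare the CD45+ cells, that is the leukocytes, of Panc02-SIY tumors given 12 Gy of radiation in vivo (RT) with those of untreated tumors (NT). All Panc02-SIY libraries of the series were taken, 4 RT and 4 NT, of 16 libraries in all. The dose was given once to the tumor under image guidance, and tumors were taken 24 h later, dissociated and sorted for live CD45+ cells. Both groups share the tumor line, the strain and the sort. The mice were 6 to 8 wk old per the methods, which give 3 animals per group where the labels give 4 replicates, and neither says which animal a library comes from. The p-values therefore measure the spread between these libraries, some of which may share an animal.

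Ionizing radiation breaks DNA, and cells answer through the kinases ATM and ATR and the transcription factor p53. p53 switches on genes that stop the cell cycle (Cdkn1a), limit p53 itself (Mdm2), start apoptosis (Bax, Bbc3) or reduce stress (Sesn2). A damaged cell that is in cycle can also stop making the transcripts that E2F factors drive for DNA synthesis. DNA in the cytosol and damaged neighbors can raise type I interferon, which induces interferon-stimulated genes through STAT2 and IRF9. Tumor leukocytes include T cells, NK cells, macrophages, monocytes, neutrophils and conventional dendritic cells (cDC), and these types differ in how readily radiation kills them.

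The 8 libraries held 18835 cell barcodes, of 28678 in the series. Pairs of libraries shared between 67 and 118 barcode strings (median 82 over 28 pairs). A shared string was kept only in the library where it had the most unique molecular identifiers (UMIs, 1 per captured transcript molecule), which left 18136 barcodes and removed at most 0.975% of the UMIs of a library. Kept totals ran from 5275195 to 43708746 UMIs per library, with the lowest total in RT replicate 1 and the highest in NT replicate 4. The median barcode held 4770 to 6594 UMIs in NT and 3538 to 6004 in RT. Ptprc, which encodes CD45, was at 1237 to 1719 CPM (UMIs of a gene scaled to a common library total) in NT and 1550 to 2013 CPM in RT and did not pass the test (adjusted p = 0.262 by edgeR). Not every barcode was a leukocyte by its markers. Clusters that raised fibroblast and other non-immune markers held 3.20%, 6.80%, 2.73% and 15.3% of the UMIs of NT replicates 1 to 4, and 3.85%, 3.18%, 1.68% and 8.65% of those of RT replicates 1 to 4. NT replicate 4 stood apart on the first principal component of the library sums, which took 45.8% of the variance, while the component that separated RT from NT took 21.8%.

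To ask which genes differ between irradiated and untreated tumors, UMIs were summed per library over all kept barcodes. Genes with a fold change above 1.3 and a p below 0.1 by edgeR's quasi-likelihood test, after Benjamini-Hochberg adjustment over all genes tested, were called. Of 12654 genes tested, 786 were higher and 613 lower in RT, so that 6.21% of all genes tested were called higher and 4.84% lower (11.1% in all), and the median log2 fold change of all genes was -0.02. With library size alone as the scaling, 966 were higher and 405 lower, so the share of called genes that were higher moved from 56.2% to 70.5%. The 1399 calls became 554 without NT replicate 2, 787 without NT replicate 3, 601 without RT replicate 1 and 399 without RT replicate 3. They became 1775 when the clusters with non-immune markers were left out. Leaving out the other libraries moved the count by less than 1.5 times. In such sums a change in the number of cells of a type and a change in RNA per cell cannot be told apart.

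**Figure D1:**
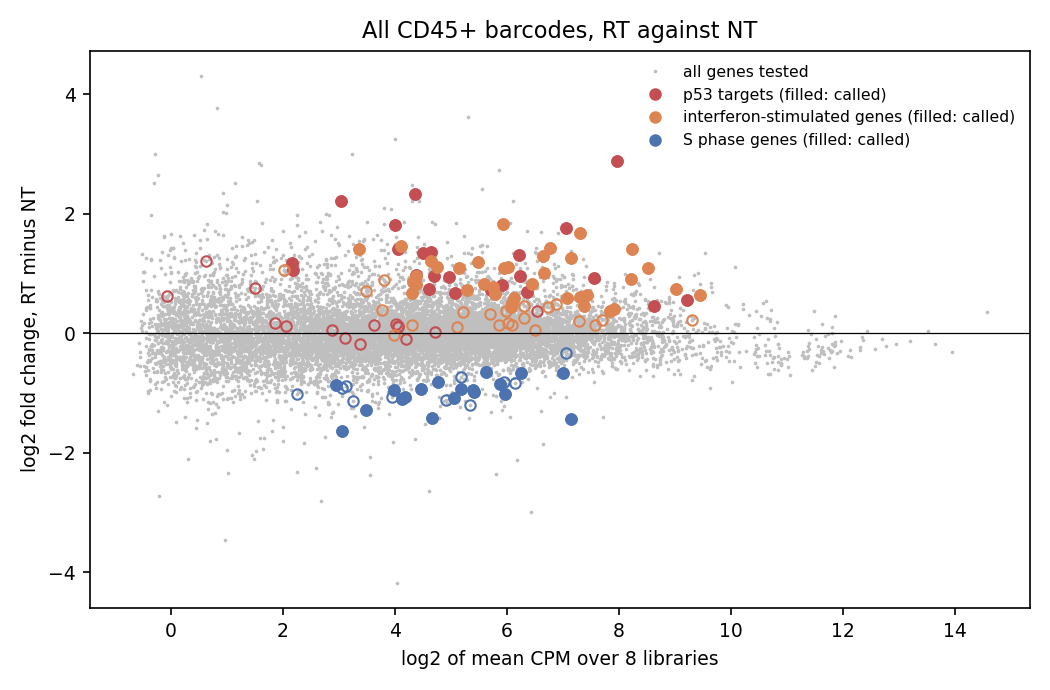
Each point is a gene, with the log2 of its mean CPM over the 8 libraries on the x axis and its log2 fold change (RT minus NT) on the y axis. Gray dots are all genes tested, and members of the p53, interferon and S phase lists are circles, filled where called. Called p53 targets and interferon-stimulated genes lie above 0 and called S phase genes below 0.

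Cdkn1a, which encodes the cell cycle inhibitor p21, led the p53 targets. Its level was 73.6, 49.1, 64.7 and 50.6 CPM in NT replicates 1 to 4 and 440.5, 342.5, 418.2 and 559.2 CPM in RT replicates 1 to 4. The lowest RT library was far above the highest NT library, and the fitted difference was 7.42-fold (log2 2.89 ± 0.19 SE, adjusted p = 0.000397 by edgeR, n = 4 per group). Cdkn1a lies on chromosome 17, from 29090976 to 29100727 on the plus strand of GRCm38. The 250 bases before its start are shown because they hold a match to a pair of p53 consensus decamers, with up to 13 bases allowed between them. Among the 30 p53 targets with a RefSeq promoter window (GRCm38.p6), this gene alone held such a pair there. Only exact decamers were counted, so a decamer with a mismatch is not marked. Whether p53 binds the marked bases was not tested. Of all 27025 genes with a window, 0.0666% held such a match. The capitals mark the matched pair and the bases between, and the window is chr17:29090729-29090978 on the plus strand.
Cdkn1a: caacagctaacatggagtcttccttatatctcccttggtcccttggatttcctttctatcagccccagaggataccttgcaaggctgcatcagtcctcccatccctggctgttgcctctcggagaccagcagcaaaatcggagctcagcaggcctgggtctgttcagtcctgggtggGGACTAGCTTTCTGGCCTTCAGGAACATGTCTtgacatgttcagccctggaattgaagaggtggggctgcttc

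The other p53 targets moved with it. Of 38 tested, 23 rose and none fell, which is 60.5% of the list beside the 6.21% of all genes tested, and the list's median log2 fold change was 0.75. The groups did not overlap for 25 of the 38, beside 8.76% of all genes tested. Ccng1, the cyclin G1 gene, was nearly even within each group, at 59.3, 63.2, 67.1 and 53.2 CPM in NT and 197.1, 202.5, 206.1 and 215.8 CPM in RT (log2 1.76 ± 0.09 SE, adjusted p = 7.92e-05 by edgeR). It had the smallest p of the list. Phlda3, an inhibitor of AKT signaling, was at 4.26, 6.25, 2.51 and 13.1 CPM in NT and 36.5, 31.3, 30.9 and 40.2 CPM in RT (log2 2.33 ± 0.42 SE, adjusted p = 0.024). Its NT replicate 4 was above the other NT libraries, and all RT libraries were above it. Mdm2, the ligase that degrades p53, was at 61.2, 59.5, 56.4 and 75.0 CPM in NT and 97.8, 94.4, 91.9 and 122.4 CPM in RT (log2 0.69 ± 0.13 SE, adjusted p = 0.024). The groups did not overlap for any of these genes, and the fold for Mdm2 was the smallest of the 4.

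Among genes for apoptosis, Bax rose from a mean of 129.7 to 248.0 CPM, Bbc3 (PUMA) from 7.13 to 25.1 CPM, and Fas from 13.9 to 27.5 CPM. Aen, a nuclease of apoptosis, rose from 21.4 to 41.3 CPM, and Apaf1 from 43.8 to 76.3 CPM. Sesn2, a sestrin of the stress response, rose from 9.14 to 23.9 CPM, and Dcxr, a carbonyl reductase, from 14.0 to 36.2 CPM. Members that did not pass the test included the DNA damage recognition genes Xpc (log2 0.14 ± 0.14 SE) and Ddb2 (log2 -0.07 ± 0.14 SE), the ribonucleotide reductase subunit Rrm2b (log2 0.02 ± 0.15 SE) and the p53-regulated phosphatase Ppm1d (log2 0.13 ± 0.13 SE). The list's count stayed between 19 and 25 over 21 alternative settings and stayed at 23 without the clusters that raised non-immune markers. The summed level of the list was 1555 to 1801 CPM in NT and 2993 to 3247 CPM in RT.

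**Figure D2:**
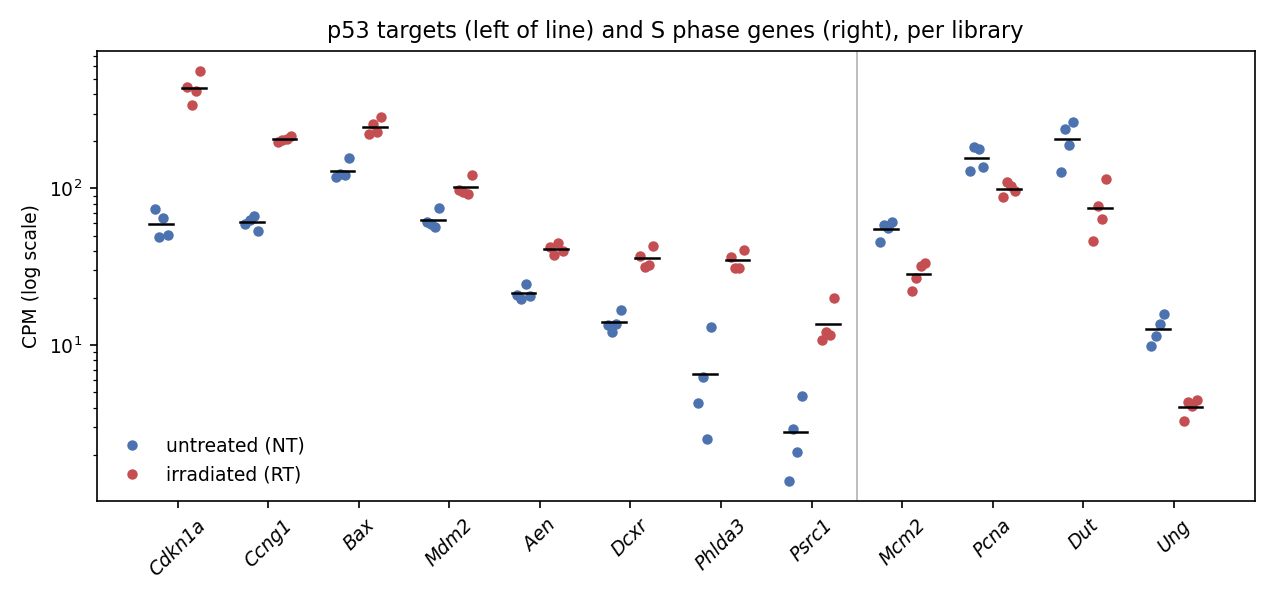
CPM on a log scale for 8 p53 targets (left of the line) and 4 S phase genes (right), with 1 point per library and a bar at the mean of the 4 libraries of a group. In all 12 genes the RT and NT points do not overlap.

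The largest rises among called genes with non-overlapping groups and at least 10 CPM in the higher group were not all p53 targets. Serpine2, a secreted inhibitor of serine proteases, was at 1.22, 6.37, 12.6 and 3.104 CPM in NT and 132.5, 46.4, 63.8 and 49.5 CPM in RT, a 12.3-fold difference (adjusted p = 0.0217 by edgeR). Arg1, the arginine-degrading enzyme arginase 1 of some myeloid cells, was at 4.11, 4.40, 1.99 and 2.01 CPM in NT and 35.1, 34.4, 16.6 and 29.5 CPM in RT (log2 3.25 ± 0.35 SE, adjusted p = 0.00529). Cox6b2, a subunit of cytochrome c oxidase, rose from 1.59 to 2.68 CPM in NT libraries to 14.5 to 19.8 CPM in RT libraries (log2 3.00 ± 0.20 SE). Each was higher in all RT libraries than in any NT library. Cnn3 (a calponin), the long noncoding RNA gene Gm42047 and Ffar2 (a receptor for short-chain fatty acids) completed the 10 largest rises with Cdkn1a, Phlda3, Ccl24 and Ccl22. The call of Ffar2 was lost without RT replicate 1 (adjusted p = 0.113) and without RT replicate 3 (adjusted p = 0.126).

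Genes of DNA synthesis were lower in RT. Of 30 S phase genes tested, 19 fell and none rose, which is 63.3% of the list beside the 4.84% of all genes tested, with a list median log2 of -0.95. Ung, which removes uracil from DNA, was at 9.89, 11.4, 13.7 and 15.7 CPM in NT and 3.29, 4.33, 4.10 and 4.45 CPM in RT (log2 -1.64 ± 0.18 SE, adjusted p = 0.00529 by edgeR). Mcm2, a subunit of the replicative helicase, was at 45.6, 58.5, 55.7 and 61.3 CPM in NT and 22.1, 26.8, 31.9 and 33.3 CPM in RT (log2 -0.95 ± 0.14 SE, adjusted p = 0.0155). Pcna, the sliding clamp of replication, was at 129.1, 184.7, 177.9 and 136.8 CPM in NT and 88.5, 110.0, 103.9 and 95.8 CPM in RT (log2 -0.66 ± 0.14 SE, adjusted p = 0.0316). For these 3 genes the highest RT library was below the lowest NT library, which held for 11 of the 30 genes beside 8.28% of all genes tested. The count of 19 depended on the libraries and was 7 without NT replicate 2, 9 without NT replicate 3, 11 without NT replicate 4, 8 without RT replicate 1, 8 without RT replicate 2 and 5 without RT replicate 3.

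Of the 23 S phase genes with a RefSeq window, 7 held TTTCCCGC or TTTGGCGC, E2F-type motifs, on either strand in the 250 bases before a start, beside 1.51% of all genes. The window of Mcm5, another helicase subunit, is shown as one of them (chr8:75109259-75109508, plus strand of GRCm38.p6), with the match, which reads on the minus strand, in capitals. Mcm5 was at 50.04, 81.7, 83.7 and 88.2 CPM in NT and 27.8, 39.8, 49.0 and 51.0 CPM in RT (log2 -0.85 ± 0.23 SE, adjusted p = 0.0577), with overlap between NT replicate 1 and RT replicate 4.
Mcm5: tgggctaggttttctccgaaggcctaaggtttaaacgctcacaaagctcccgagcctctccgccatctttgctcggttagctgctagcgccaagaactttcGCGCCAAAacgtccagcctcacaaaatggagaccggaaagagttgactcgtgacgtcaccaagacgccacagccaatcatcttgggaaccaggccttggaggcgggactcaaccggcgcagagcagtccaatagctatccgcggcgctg

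Genes of G2 and mitosis did not pass the test. None of 30 was called by edgeR (1 at an unadjusted p below 0.05, and 1 called by DESeq2), although all 30 had a negative log2 fold change with a median of -0.81. Mki67, a marker of dividing cells, was at 67.2, 182.7, 102.2 and 263.2 CPM in NT and 16.1, 70.4, 65.9 and 152.4 CPM in RT (log2 -1.003 ± 0.62 SE, adjusted p = 0.36). The libraries of a group differed by more than the groups did, so the test could miss a shift of this size. Leaving out RT replicate 4 gave 3 calls.

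Among the 10 largest falls by the same rule, applied to NT as the higher group, were 4 histone genes of the Hist1 cluster. They have near-identical copies and transcripts without a long poly(A) tail, so their counts are uncertain. Hist1h2ap was at 119.3, 194.1, 88.9 and 222.0 CPM in NT and 21.2, 33.3, 61.8 and 54.9 CPM in RT (log2 -1.85 ± 0.39 SE, adjusted p = 0.034). Hist1h2ab, Hist1h2ae and Hist1h2bj each lost their call without NT replicate 2 or RT replicate 1, 2 or 3 (adjusted p between 0.105 and 0.162). The others were Ung, Cdca7, a gene of dividing cells at 13.5 to 29.4 CPM in NT and 6.21 to 10.7 CPM in RT, the nucleotide enzymes Dut and Tyms, Chek1, and Cd160. Without RT replicate 3 the calls of Dut (adjusted p = 0.116), Tyms (adjusted p = 0.171) and Chek1 (adjusted p = 0.121) were lost. Chek1 was also lost without NT replicate 2 (adjusted p = 0.113), and Tyms without NT replicate 2 (adjusted p = 0.149), RT replicate 1 (adjusted p = 0.123) or RT replicate 2 (adjusted p = 0.132).

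DNA repair genes were lower or not called. Of 35 tested, 7 fell and none rose (20%, beside 4.84% of all genes tested), with a list median log2 of -0.30. Beside Ung, the end-joining factor Xrcc5 (Ku80) fell from a mean of 16.8 to 11.0 CPM (log2 -0.61 ± 0.11 SE, adjusted p = 0.024) and Rif1, which steers the choice of repair pathway, from 99.8 to 74.5 CPM (log2 -0.42 ± 0.09 SE, adjusted p = 0.0298). The other members that fell were Chek1, the ligase Lig1, the mismatch repair gene Msh6 and Xrcc6 (Ku70). The count was 11 without NT replicate 1, 3 without NT replicate 2, 3 without NT replicate 3, 3 without RT replicate 1, 4 without RT replicate 2 and 2 without RT replicate 3, and 11 without the clusters that raised non-immune markers. The call of Rif1 was among those lost without NT replicate 3, RT replicate 1 or RT replicate 3, with adjusted p up to 0.264 over the alternatives.

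Interferon-stimulated genes rose as a group. Of 59 tested, 37 rose and none fell (62.7% of the list, beside 6.21% of all genes tested), with a median log2 of 0.65. The summed level was 5054 to 5408 CPM in NT and 7736 to 9469 CPM in RT. Without RT replicate 3 the count was 23. Rsad2 (viperin, an antiviral enzyme) was at 68.5, 65.7, 62.0 and 40.4 CPM in NT and 200.1, 128.0, 150.5 and 159.0 CPM in RT (log2 1.43 ± 0.19 SE, adjusted p = 0.0109 by edgeR). Isg15, a ubiquitin-like modifier, was at 196.1, 207.4, 177.6 and 241.0 CPM in NT and 380.0, 364.0, 300.3 and 508.6 CPM in RT (log2 0.92 ± 0.17 SE, adjusted p = 0.0234). Oas2, a sensor of double-stranded RNA, was at 5.78, 5.86, 5.70 and 5.00 CPM in NT and 19.4, 12.3, 13.5 and 14.8 CPM in RT (log2 1.42 ± 0.16 SE, adjusted p = 0.00529). Groups did not overlap for these genes. Ifi205, an IFI200 family member, rose from a mean of 26.6 to 94.6 CPM, and Stat2, which carries the interferon signal, from 42.7 to 67.1 CPM. Irf9 (log2 0.26 ± 0.13 SE), which acts with Stat2, did not pass the test.

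The windows of Rsad2 and Isg15 are shown because both genes rose and hold the core of the interferon-stimulated response element (GAAA, any 2 bases, GAAA, on either strand). It occurred in the 250 bases before a start in 28 of the 48 list members with a RefSeq window and in 3.46% of all genes. Of the 28 with the motif 16 rose, and of the 20 without it 12 rose. The Rsad2 window is chr12:26456453-26456702 and the Isg15 window chr4:156200819-156201068, both on the minus strand of GRCm38.p6, with matches in capitals. The 3 matches of Isg15 overlap.
Rsad2: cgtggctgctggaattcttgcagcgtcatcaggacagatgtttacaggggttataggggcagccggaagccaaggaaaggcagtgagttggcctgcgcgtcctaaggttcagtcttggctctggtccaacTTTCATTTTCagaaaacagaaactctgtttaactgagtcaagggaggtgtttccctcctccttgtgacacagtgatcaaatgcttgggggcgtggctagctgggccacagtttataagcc
Isg15: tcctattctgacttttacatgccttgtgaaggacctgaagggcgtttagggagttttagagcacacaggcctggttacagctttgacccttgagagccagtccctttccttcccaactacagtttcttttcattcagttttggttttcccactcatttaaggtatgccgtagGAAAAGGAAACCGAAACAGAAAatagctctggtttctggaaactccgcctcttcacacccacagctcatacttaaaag

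Markers of some cell types differed between the groups as well. The summed level of the 10 monocyte markers was 1107 to 1521 CPM in NT and 1859 to 2671 CPM in RT, and that of the 13 cDC markers 309.1 to 414.4 CPM in NT and 523.4 to 593.5 CPM in RT. The 12 T cell markers were at 3954 to 4858 CPM in NT and 2290 to 3796 CPM in RT. All members of these lists were detected, and none of the 3 sums overlapped between groups. Those of the neutrophil markers (735.1 to 2433 CPM in NT and 1429 to 3630 CPM in RT), macrophage markers (959.5 to 4633 and 2032 to 5406 CPM) and NK cell markers (1746 to 3337 and 1962 to 4152 CPM) did overlap. Monocyte-like barcodes held a mean of 9.08% of the UMIs of interferon-stimulated genes in NT and 30.8% in RT, and T cell-like barcodes 29.0% and 15.5%. The part of these markers in the changes of the lists was not tested.

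Genes of interleukin-1 and inflammation also rose, 12 of 21 tested and none lower (57.1%, beside 6.21% of all genes tested), with a median log2 of 0.98. Il1b, the cytokine interleukin-1 beta, was at 802.1, 696.5, 517.5 and 714.7 CPM in NT and 1582, 1362, 1598 and 1357 CPM in RT (log2 1.11 ± 0.14 SE, adjusted p = 0.00786 by edgeR). Il1a was at 5.32, 6.63, 4.24 and 4.51 CPM in NT and 22.8, 12.9, 16.0 and 9.17 CPM in RT (log2 1.54 ± 0.28 SE, adjusted p = 0.024). Neither gene overlapped between groups. Tnf rose from a mean of 50.2 to 89.5 CPM and Casp4, an inflammatory caspase, from 58.6 to 99.0 CPM. The count was 7 without RT replicate 1 and 6 without RT replicate 3. Neutrophil-like barcodes held a mean of 41.7% of the UMIs of this list in NT and 46.8% in RT. Within them none of 17 was called by edgeR (4 at an unadjusted p below 0.05, 1 by DESeq2), and within cDC-like barcodes none of 11 (5 and 3). Rises were 2 of 15 in macrophage-like (13.3%, beside 1.1% of all genes there), 2 of 12 in T cell-like (16.7%, beside 3.81%) and 1 of 15 in monocyte-like barcodes (6.67%, beside 0.318%). In NK cell-like barcodes 1 of 7 fell (14.3%, beside 1.88%). The part of the cell mix was not tested.

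Of 24 chemokine ligands tested, 7 rose and none fell (29.2%, beside 6.21% of all genes tested). Cxcl2, which draws neutrophils, was at 333.7, 263.6, 202.0 and 242.6 CPM in NT and 609.7, 505.3, 498.5 and 349.4 CPM in RT (log2 0.91 ± 0.20 SE, adjusted p = 0.0347), and its call was lost without RT replicate 3 (adjusted p = 0.103). Ccl12, a monocyte chemoattractant, rose from a mean of 3.45 to 12.2 CPM and Ccl24, an eotaxin, from 14.8 to 101.3 CPM. Ccl24 was lost without NT replicate 3 (adjusted p = 0.118), RT replicate 1 (adjusted p = 0.133) or RT replicate 3 (adjusted p = 0.134). It was among the leading genes of a monocyte-like cluster with 150 NT and 633 RT barcodes. Ccl22, a ligand of CCR4, rose from 7.38 to 32.2 CPM and was lost without NT replicate 2 (adjusted p = 0.146), RT replicate 1 (adjusted p = 0.143), RT replicate 2 (adjusted p = 0.156) or RT replicate 3 (adjusted p = 0.162). The lymphocyte chemokine Ccl5 was at a mean of 2764 CPM in NT and 2738 CPM in RT (log2 -0.01 ± 0.22 SE). The count was 4 without NT replicate 3 and 1 without RT replicate 3. Within T cell-like barcodes 2 of 14 rose (14.3%, beside 3.81% of all genes there). In macrophage-like barcodes 1 of 17 rose and 1 fell (5.88% each, beside 1.1% and 1.74%). In NK cell-like barcodes 1 of 8 fell (12.5%, beside 1.88%). None was called by edgeR in monocyte-like, cDC-like or neutrophil-like barcodes. There 1, 3 and 2 were at an unadjusted p below 0.05, and DESeq2 called 1, 1 and 0. The part of the cell mix was not tested.

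Of 32 genes of dendritic cell maturation, 8 rose and none fell (25%, beside 6.21% of all genes tested), with a median log2 of 0.33. That is over all CD45+ barcodes. Within cDC-like barcodes none of 31 was called by edgeR (7 at an unadjusted p below 0.05, 2 by DESeq2). Within T cell-like barcodes 10 of 21 rose (47.6%, beside 3.81% of all genes tested there). Cd274, which encodes PD-L1, was at 117.4, 172.6, 108.1 and 128.5 CPM in NT and 248.6, 222.3, 258.3 and 304.6 CPM in RT (log2 0.97 ± 0.16 SE, adjusted p = 0.0184 by edgeR). Cd40 rose from a mean of 11.9 to 30.4 CPM and Cd86 from 46.1 to 74.8 CPM, both costimulatory molecules of antigen-presenting cells. Zbtb46, a transcription factor of cDC, was at 3.42 to 7.45 CPM in NT and 5.54 to 6.90 CPM in RT and did not pass the test. The count of 8 over all barcodes was 14 without NT replicate 1, 3 without NT replicate 2, 5 without NT replicate 3 and 3 without RT replicate 3. Over all barcodes 2 of 11 genes of MHC class II presentation rose (18.2%, beside 6.21% of all genes tested), Ciita and H2-DMb2. The list's median log2 was 0.40. Ciita was lost without RT replicate 3 (adjusted p = 0.106) and H2-DMb2 without NT replicate 2 (adjusted p = 0.109). Both were lost with barcodes thinned to at most 2000 UMIs (adjusted p = 0.253 and 0.321 by edgeR). Within cDC-like barcodes none of 11 was called by edgeR (1 at an unadjusted p below 0.05, 0 by DESeq2), with a median log2 of -0.10. Within macrophage-like barcodes none of 9 was called (0 and 0). In T cell-like barcodes 1 of 9 rose (11.1%, beside 3.81%). In neutrophil-like barcodes none of 7 was called by edgeR (5 at an unadjusted p below 0.05, 4 lower by DESeq2), with a median log2 of -1.02. In NK cell-like barcodes none of 8 was called by edgeR (1 and 0), with a median log2 of -0.31. In monocyte-like barcodes none of 9 was called (1 and 0), with a median log2 of 0.10. None of 17 genes of MHC class I presentation was called by edgeR (3 at an unadjusted p below 0.05, 0 by DESeq2), and B2m was at 3037 to 3655 CPM in NT and 3619 to 3731 CPM in RT.

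Some members of the macrophage lists rose. Of 20 genes of lipid-associated macrophages 3 rose (Arg1, Fabp5 and Trem2), of 11 C1q and resident macrophage genes 3 rose (Mrc1 and Selenop among them), and of 14 genes of apoptotic cell uptake 2 rose (Cd300lf and Pros1), with none lower. These are 15%, 27.3% and 14.3% of the lists beside 6.21% of all genes tested. These counts were 1 without RT replicate 1 or RT replicate 3 for the first list, 0 without RT replicate 3 for the second, and for the third 0 without NT replicate 2 or RT replicate 3, 1 without NT replicate 3 or RT replicate 1 and 4 without NT replicate 4. Within macrophage-like barcodes none of 17 of the first list was called by edgeR (3 at an unadjusted p below 0.05, 1 by DESeq2). There 2 of 9 of the second rose (22.2%) and 3 of 10 of the third (30%), beside 1.1% of all genes. In monocyte-like barcodes 2 of 18 of the first and 1 of 9 of the third fell (11.1% each, beside 0.347%). In T cell-like barcodes 2 of 14, 1 of 7 and 2 of 9 rose (14.3%, 14.3% and 22.2%, beside 3.81%). The part of the cell mix was not tested. Of 23 glycolysis and hypoxia genes 6 rose (26.1%, beside 6.21% of all genes tested), led by the glucose transporter Slc2a1, which went from 21.7 to 27.5 CPM in NT to 36.6 to 47.5 CPM in RT (log2 0.72 ± 0.12 SE, adjusted p = 0.0176). That count was 3 without NT replicate 3, RT replicate 1 or RT replicate 3. The median log2 of the glycolysis and hypoxia list was 0.22, and 15 of the 23 were positive. Its summed level was 3098 to 4214 CPM in NT and 2911 to 4062 CPM in RT, with overlap. Within T cell-like barcodes 3 of 22 rose and 1 fell (13.6% and 4.55%, beside 3.81% and 5.58%). None was called by edgeR in NK cell-like, macrophage-like, monocyte-like, cDC-like or neutrophil-like barcodes. There 4, 6, 3, 2 and 8 were at an unadjusted p below 0.05, and DESeq2 called 1, 0, 0, 0 and 1. The part of the cell mix was not tested here either. Of 15 Nrf2 genes 1 rose (Gsr), which is 6.67% and near the 6.21% of all genes tested. Without NT replicate 2, 3 or 4 or RT replicate 1, 2 or 3 none rose, while without NT replicate 1 the count was 3 and without RT replicate 4 it was 2.

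Of 24 immediate early and dissociation genes, which also respond to tissue handling, 11 rose and 1 fell. These are 45.8% and 4.17% of the list, beside 6.21% and 4.84% of all genes tested. Zfp36, which destabilizes cytokine transcripts, was at 569.0, 480.7, 470.9 and 491.5 CPM in NT and 1019, 770.9, 975.9 and 788.5 CPM in RT (log2 0.82 ± 0.12 SE, adjusted p = 0.0135). The count of 11 was 3 without NT replicate 2, NT replicate 3 or RT replicate 1 and 1 without RT replicate 3. The member that fell was the chaperone Hsph1, whose call was lost without any 1 of 6 libraries (NT replicates 2, 3 and 4 and RT replicates 1, 2 and 3), with adjusted p up to 0.22. Within classes 3 of 23 rose in T cell-like (13%, beside 3.81%) and 1 of 21 each in NK cell-like and macrophage-like barcodes (4.76%, beside 1.63% and 1.1%). None was called by edgeR in cDC-like, monocyte-like or neutrophil-like barcodes. There 7, 5 and 1 were at an unadjusted p below 0.05, and DESeq2 called 0 of each. The part of the cell mix was not tested.

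Part of the ribosomal protein genes fell. Of 93 tested, 32 fell (34.4%, beside 4.84% of all genes tested) and 1 rose, the 1 being Rps27l, which is also on the p53 list. The list's median log2 was -0.33. The summed level was 202873 to 215377 CPM in NT and 168973 to 184935 CPM in RT. Rpsa was at 3168, 3330, 3340 and 3903 CPM in NT and 2275, 2499, 2270 and 2317 CPM in RT (log2 -0.55 ± 0.09 SE, adjusted p = 0.0166). The call of Rps27l was lost without any 1 library other than NT replicate 4, with adjusted p up to 0.195 over the alternatives. The count of falls was 12 without NT replicate 2, 11 without NT replicate 3, 3 without RT replicate 1 and 2 without RT replicate 3, and 19 with library size alone. T cell-like barcodes held 50.9% of these UMIs in NT and 36.7% in RT. Within NK cell-like barcodes 29 of 89 fell (32.6%, beside 1.88% of all genes there). Falls were 24 of 91 in T cell-like (26.4%, beside 5.58%) and 6 of 90 in macrophage-like barcodes (6.67%, beside 1.74%). In T cell-like barcodes 2 rose (2.2%, beside 3.81%). None was called by edgeR in cDC-like, monocyte-like or neutrophil-like barcodes. There 8, 31 and 51 were at an unadjusted p below 0.05, and DESeq2 called 0, 0 and 8 lower. Of 13 mitochondrial genes none was called by edgeR (4 at an unadjusted p below 0.05, 0 by DESeq2).

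Lymphocyte lists were tested next. Of 12 inhibitory receptors and Tox, 3 fell and none rose (25%, beside 4.84% of all genes tested). Cd160, a receptor of NK and T cells, was at 91.1, 69.7, 76.0 and 63.1 CPM in NT and 27.2, 31.2, 37.3 and 24.0 CPM in RT (log2 -1.32 ± 0.16 SE, adjusted p = 0.00742), and Tox, a transcription factor of chronically stimulated T cells, fell from a mean of 121.3 to 78.1 CPM. The third was Pdcd1 (PD-1), whose adjusted p was 0.0918 and reached 0.253 over the alternatives, and its call was lost without any 1 of NT replicates 1 to 4, RT replicate 2 or RT replicate 3. These falls are over all CD45+ barcodes, of whose UMIs T cell-like barcodes held a mean of 45.3% in NT and 30.2% in RT. Within T cell-like barcodes 1 of 12 rose, Vsir (8.33%, beside 3.81% of all genes there). Cd160 alone fell there (8.33%, beside 5.58%), so neither Tox nor Pdcd1 was called. The list's median log2 in that class was 0.20. The part of the cell mix was not tested. Of 17 cytotoxic and effector genes 1 rose (5.88%, near the 6.21% of all genes tested), Prf1 (perforin), from a mean of 220.8 to 320.7 CPM, and its call was lost without NT replicate 2 (adjusted p = 0.108). Ifng was at 311.7, 331.3, 304.3 and 180.0 CPM in NT and 216.7, 447.5, 237.2 and 203.7 CPM in RT (log2 -0.03 ± 0.29 SE, adjusted p = 0.969), with the groups interleaved. Over all CD45+ barcodes none of 12 naive and memory genes was called by edgeR (0 at an unadjusted p below 0.05, 2 by DESeq2). Within T cell-like barcodes 3 of 11 rose and 1 fell (27.3% and 9.09%, beside 3.81% and 5.58% of all genes there). The list's median log2 there was 0.59. In NK cell-like barcodes 2 of 9 rose and 1 fell (22.2% and 11.1%, beside 1.63% and 1.88%). The part of the mix of clusters within these classes was not tested.

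Lists of other cell types were compared between the groups as well. This cannot show how pure the sort was, since cells present in both groups give no call. Clusters that raised non-immune markers held up to 15.3% of the UMIs in NT (replicate 4) and 8.65% in RT (replicate 4). None of 6 epithelial, 9 fibroblast and 3 endothelial genes tested was called by edgeR (0, 1 and 0 at an unadjusted p below 0.05, and 0 of each by DESeq2). The 10 fibroblast markers summed to 47.2 to 401.2 CPM in NT and 28.2 to 157.5 CPM in RT, and no erythroid gene passed the filter on low counts. Of 3 skin and muscle genes tested Mylpf fell, from a mean of 4.84 to 3.07 CPM, with adjusted p between 0.0344 and 0.282 over the alternatives, and lost its call without any 1 of NT replicates 2 to 4 or RT replicates 1 to 4.

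**Figure D3:**
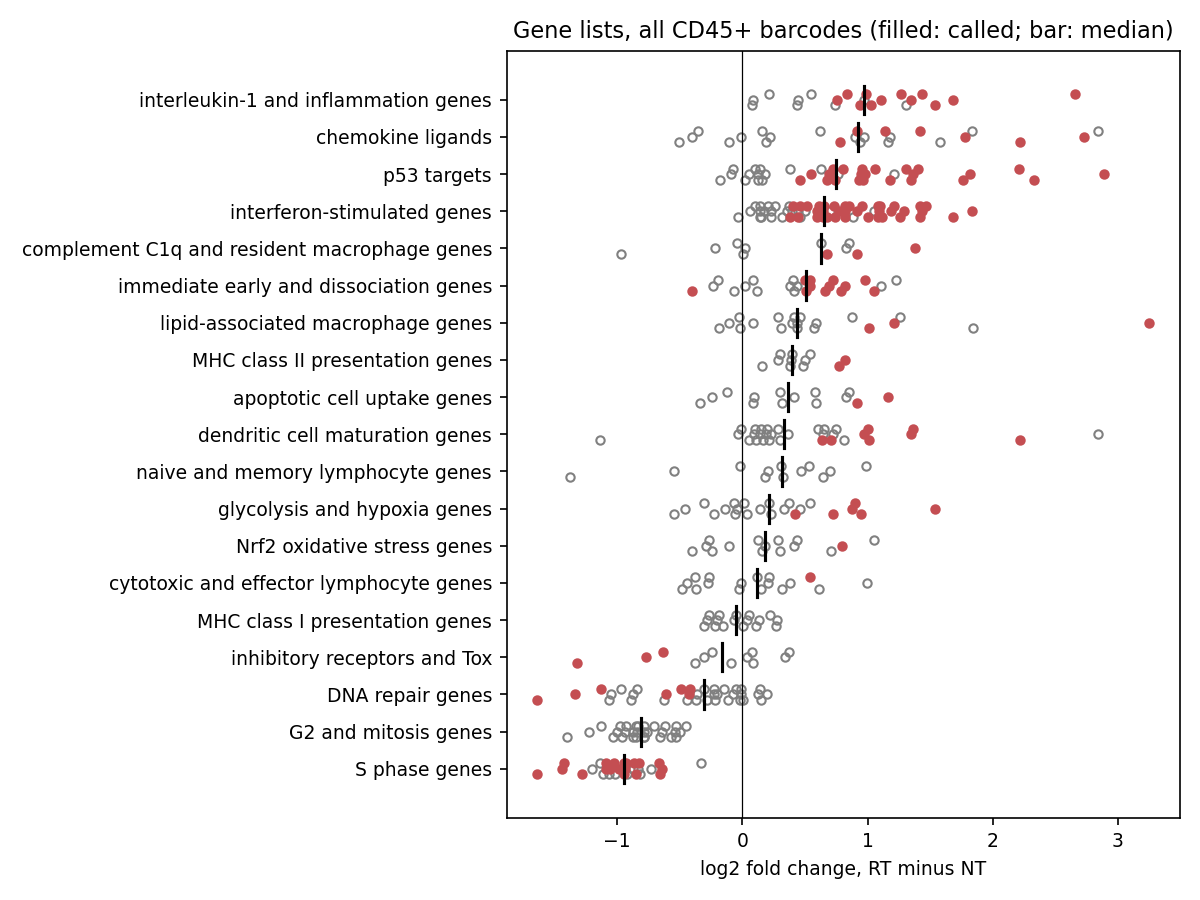
Log2 fold change (RT minus NT) over all CD45+ barcodes for the tested members of 19 gene lists, 1 point per gene, filled where called, with a bar at each list's median. The inflammation, chemokine, p53 and interferon lists have the highest medians and the S phase list the lowest, at -0.95.

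The makeup of the CD45+ barcodes was compared next. Clusters were named from marker genes, and 18.9% of barcodes stayed unnamed. Monocyte-like barcodes were 2.88%, 1.74%, 5.01% and 1.08% of NT libraries and 6.79%, 6.56%, 9.42% and 8.05% of RT libraries, and this was the only class whose groups did not overlap. The exact two-sided permutation test gave p = 0.0286, the smallest that 4 against 4 libraries allow, and 0.214 after adjustment over 10 classes, so the difference of 5.03 points did not pass. T cell-like barcodes were 30.1%, 34.7%, 35.5% and 35% of NT and 17.3%, 30.4%, 27.9% and 29.3% of RT libraries (exact permutation p = 0.0571, adjusted 0.214). NT replicate 1 lay below RT replicate 2. The class leaves out an unnamed cluster that raised 8 T cell markers and 3 NK cell markers, with 667 NT and 750 RT barcodes. Another unnamed cluster, with Themis, Tox and Lag3 among its leading genes but fewer than 3 markers of any class raised, held 931 NT and 484 RT barcodes. NK cell-like barcodes had means of 9.82% in NT and 16.0% in RT, neutrophil-like barcodes 7.72% and 13.2%, and macrophage-like barcodes 17.4% and 11.7%, with overlap in each. The macrophage-like difference of -5.71 points was -1.29 without NT replicate 4, -8.67 without RT replicate 4, -2.81 at Leiden resolution 2 and -2.25 with 10 principal components. The T cell-like difference of -7.60 points was -4.64 without RT replicate 1 and -11.61 over barcodes that passed a filter on genes and mitochondrial share. cDC-like barcodes were close, with means of 2.76% and 2.95%. Their larger cluster, with 178 NT and 206 RT barcodes, also raised 6 of 8 markers of plasmacytoid dendritic cells (pDC). Siglech and Ccr9 of these were among its leading genes. When called genes were left out of the clustering, a cluster of 20 barcodes that raised 8 pDC markers stood apart. None of the 10 classes passed, also not when the genes called between RT and NT were left out of the clustering. With 10 classes tested, an adjusted p below 0.1 needs several classes at the smallest p, so the design can miss such differences.

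**Figure D4:**
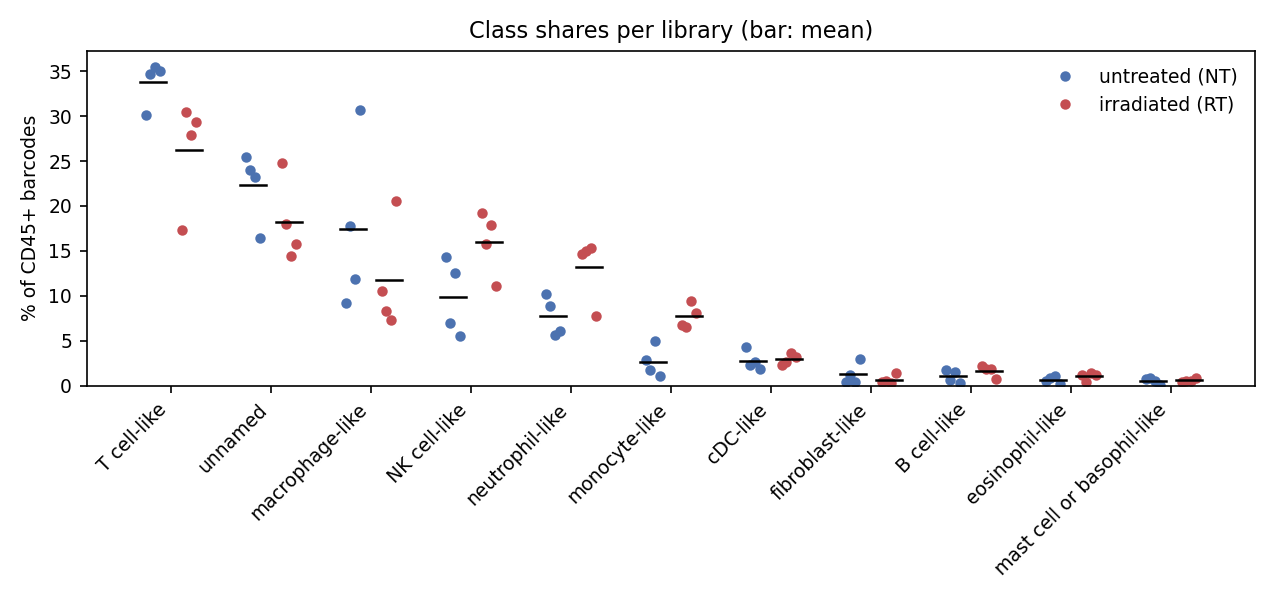
Percent of CD45+ barcodes in each class, 1 point per library, with bars at the mean of the 4 libraries. Monocyte-like points of RT all lie above those of NT, while the other classes overlap.

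To ask which cells carried these changes, sums were made within the 6 classes that had at least 20 barcodes in every library. T cell-like barcodes had the most calls, 393 higher and 576 lower of 10319 genes tested (3.81% and 5.58%). NK cell-like barcodes had 136 and 157 of 8335 (1.63% and 1.88%), macrophage-like barcodes 94 and 148 of 8508 (1.1% and 1.74%), monocyte-like barcodes 22 and 24 of 6912 (0.318% and 0.347%), cDC-like barcodes 13 and 1 of 6507 (0.2% and 0.0154%), and neutrophil-like barcodes 2 and 1 of 5231 (0.0382% and 0.0191%). Classes differ in depth and in genes tested, and differences between classes were not tested. The main cluster of each class was the same in both groups, but the mix of clusters differed (pooled barcodes, NT then RT). The dividing T cell-like cluster held 20.4% and 8.66% of the class, and another with Cd4 and Gata3 among its leading genes 6.61% and 12.9%. Of macrophage-like barcodes a cluster with a median of 1048 UMIs held 64.9% and 53.1%, and another with 16523 UMIs 29.9% and 42.4%. The smaller NK cell-like cluster held 22.7% and 14.4%. The part of these shifts in the calls was not tested.

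The counts within classes depended on the libraries. The 969 calls in T cell-like barcodes became 1487 without NT replicate 1, 310 without NT replicate 2, 396 without NT replicate 4, 610 without RT replicate 1, 532 without RT replicate 2 and 295 without RT replicate 3. The 293 in NK cell-like barcodes became 173 without NT replicate 2, 189 without NT replicate 4, 180 without RT replicate 1, 191 without RT replicate 2, 106 without RT replicate 3 and 513 without RT replicate 4. The 242 in macrophage-like barcodes became 55 without NT replicate 3, 77 without NT replicate 4, 129 without RT replicate 2 and 64 without RT replicate 3. In monocyte-like barcodes 46 became 17, 4 and 15 without NT replicates 1, 3 and 4, and 11 and 13 without RT replicates 3 and 4. In cDC-like barcodes 14 became 362, 9, 35 and 1 without NT replicates 1 to 4, and 7, 1 and 1 without RT replicates 1, 3 and 4. In neutrophil-like barcodes 3 became 33, 6, 1 and 0 without NT replicates 1 to 4, and 1, 7 and 6 without RT replicates 1, 3 and 4.

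At least 1 p53 target rose in each of the 6 classes. In T cell-like barcodes 23 of 34 rose (beside 3.81% of all genes tested there) with a median log2 of 1.13. The counts were 11 of 28 in NK cell-like, 12 of 29 in macrophage-like, 2 of 17 in cDC-like, 2 of 21 in monocyte-like and 1 of 18 in neutrophil-like barcodes, with none lower in any of the 6 classes. In the same order these are 39.3%, 41.4%, 11.8%, 9.52% and 5.56%, beside 1.63%, 1.1%, 0.2%, 0.318% and 0.0382% of all genes tested in each class. Cdkn1a was the member called in all 6. In T cell-like barcodes it was at 26.7, 18.8, 13.3 and 23.8 CPM in NT and 325.2, 222.7, 190.5 and 219.1 CPM in RT (log2 3.53 ± 0.23 SE, adjusted p = 3.31e-05 by edgeR). In macrophage-like barcodes it was at 16.7, 36.9, 29.97 and 66.2 CPM in NT and 531.2, 597.5, 595.8 and 808.3 CPM in RT (log2 3.83 ± 0.27 SE). Both classes started low. In monocyte-like barcodes it was already at 414.0, 664.0, 526.5 and 516.7 CPM in NT and reached 920.9, 898.6, 815.7 and 1204 CPM in RT (log2 0.86 ± 0.15 SE, adjusted p = 0.0276), and the call was lost without NT replicate 3 (highest adjusted p = 0.144). In neutrophil-like barcodes it was at 137.2 to 273.3 CPM in NT and 427.9 to 955.5 CPM in RT (log2 1.46 ± 0.26 SE, adjusted p = 0.0967), lost without NT replicates 2, 3 or 4 or RT replicate 1 (highest adjusted p = 0.355). In cDC-like barcodes it was at 95.3 to 276.3 CPM in NT and 533.1 to 1097 CPM in RT (log2 2.16 ± 0.35 SE, adjusted p = 0.074), lost without NT replicate 4 or RT replicates 1, 3 or 4 or at Leiden resolution 2 (highest adjusted p = 0.478).

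Other p53 targets rose in several of these classes. Ccng1 in T cell-like barcodes was at 70.3, 72.1, 77.0 and 63.5 CPM in NT and 360.2, 323.4, 315.5 and 342.1 CPM in RT (log2 2.25 ± 0.10 SE, adjusted p = 9.99e-08), and it rose by a log2 of 1.28 ± 0.13 SE in NK cell-like and 1.67 ± 0.14 SE in macrophage-like barcodes. Phlda3 was close to absent in untreated lymphocytes. It had 39 UMIs over the NT and 734 over the RT libraries in T cell-like barcodes (log2 5.09 ± 0.26 SE), 1 and 132 UMIs in NK cell-like barcodes, and 35 and 239 UMIs in macrophage-like barcodes. The apoptosis gene Bbc3 rose in T cell-like barcodes from 1.56 to 3.46 CPM in NT to 20.2 to 31.9 CPM in RT (log2 3.38 ± 0.25 SE) and in macrophage-like barcodes by a log2 of 1.79 ± 0.24 SE. Bax rose by a log2 of 1.33 ± 0.11 SE in T cell-like, 0.97 ± 0.13 SE in NK cell-like and 0.79 ± 0.13 SE in macrophage-like barcodes.

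**Figure D5:**
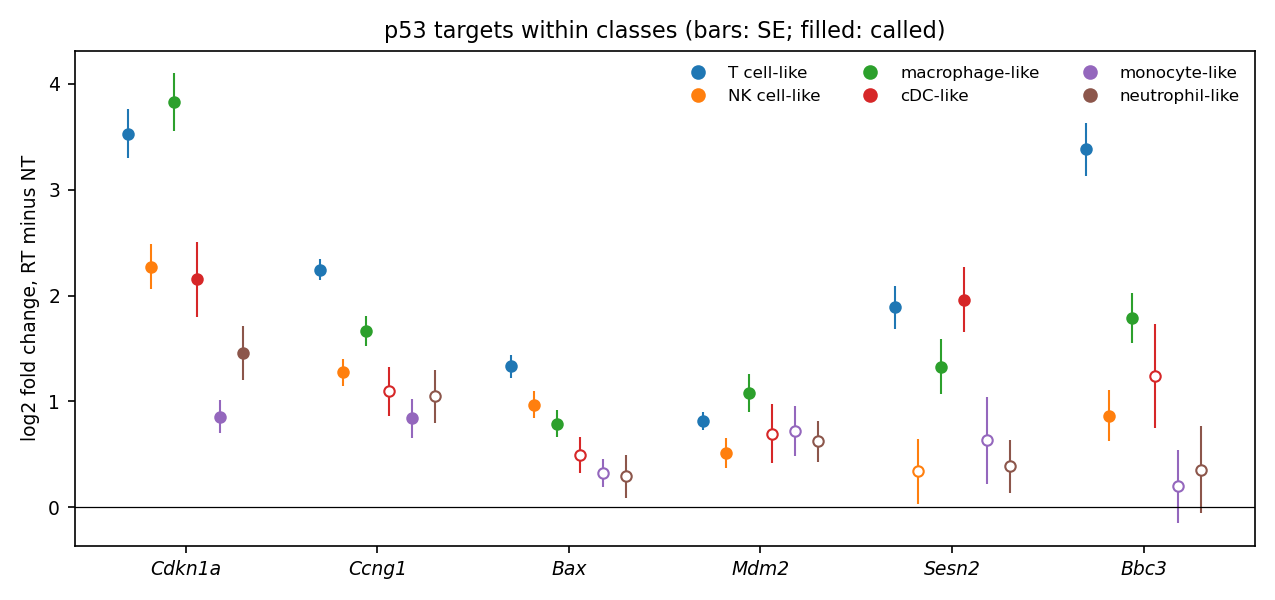
Log2 fold change (RT minus NT) of 6 p53 targets within 6 classes, with SE bars, filled where called. Cdkn1a is filled in all 6 classes and is lowest in monocyte-like barcodes, at 0.86.

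S phase genes fell within T cell-like barcodes (15 of 30, 50% beside 5.58% of all genes tested there, median log2 -0.79). They also fell in macrophage-like barcodes (12 of 29, 41.4% beside 1.74%, median log2 -0.78) and NK cell-like barcodes (4 of 20, 20% beside 1.88%). None was called in cDC-like, monocyte-like or neutrophil-like barcodes by edgeR, of 16, 5 and 2 tested (2, 1 and 0 at an unadjusted p below 0.05, and 0 of each by DESeq2). The dividing cluster held 20.4% of T cell-like barcodes in NT and 8.66% in RT, and its part in these falls was not tested. Of 30 G2 and mitosis genes none was called in T cell-like barcodes by edgeR (0 at an unadjusted p below 0.05, 0 by DESeq2). In macrophage-like barcodes none of 30 was called by edgeR either (14 at an unadjusted p below 0.05, 0 by DESeq2). All 30 were negative there, with a median log2 of -0.58. Ung in T cell-like barcodes was at 14.5, 14.7, 17.1 and 19.8 CPM in NT and 2.39, 5.19, 5.75 and 5.20 CPM in RT (log2 -1.73, adjusted p = 0.000798). Histone genes of the Hist1 cluster were among the largest falls in both T cell-like and macrophage-like barcodes. In T cell-like barcodes Hist1h2ab, Hist1h2ae and Hist1h2bj each lost their call without any 1 of NT replicates 2 and 4 and RT replicates 1, 2 and 3, with adjusted p up to 0.229 over the alternatives. In macrophage-like barcodes Hist1h2ap was at 27.8, 102.4, 90.6 and 102.5 CPM in NT and 9.43, 19.9, 7.71 and 24.3 CPM in RT (log2 -2.33, adjusted p = 0.00605).

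Some genes of killing rose in NK cell-like barcodes. This class joins a cluster led by Klra8 and Gzma, 77.3% of the class in NT and 85.6% in RT, with another led by Gzmc and Xcl1. Prf1 was among the 10 leading genes of the first, and Cd7 and Serpine2 were among those of the second. The part of this shift in the changes below was not tested. Of 16 cytotoxic and effector genes 4 rose and none was called lower (25%, beside 1.63% of all genes called higher there). The log2 fold change was positive for 9 of the 16, ran from -0.93 to 1.08 and had a median of 0.21. The 4 that rose, and Cd160, were chosen after their values were seen. Gzmb (granzyme B) was at 1093, 1082, 1175 and 1255 CPM in NT and 2597, 2500, 2266 and 2389 CPM in RT (log2 1.08 ± 0.10 SE, adjusted p = 1.12e-06), and Prf1 was at 815.3, 726.4, 794.5 and 859.8 CPM in NT and 1473, 1486, 1216 and 1315 CPM in RT (log2 0.78 ± 0.11 SE, adjusted p = 0.000107). Both kept their call in all 14 alternatives run. Serpinb9, which shields cells from granzyme B, rose by a log2 of 0.59 ± 0.11 SE, and Fasl, the ligand of the death receptor Fas, by 0.50 ± 0.10 SE. Over all CD45+ barcodes Gzmb did not pass (log2 0.12 ± 0.15 SE). Serpine2 in NK cell-like barcodes was at 1.02, 8.34, 22.2 and 11.8 CPM in NT and 208.6, 144.4, 190.6 and 201.4 CPM in RT (log2 4.01, adjusted p = 0.00236). Among the falls, Cd7, a surface protein of lymphocytes, was at 422.0, 485.7, 384.1 and 589.6 CPM in NT and 143.1, 203.9, 138.4 and 197.3 CPM in RT (log2 -1.46 ± 0.15 SE, adjusted p = 3.33e-05), and Cd160 fell by 1.37 ± 0.17 SE on the log2 scale.

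In T cell-like barcodes no cytotoxic gene of 17 was called by edgeR (2 at an unadjusted p below 0.05, 0 by DESeq2). The next 5 genes were chosen after their values were seen. Cd160 was at 114.6, 100.9, 106.3 and 118.0 CPM in NT and 43.8, 51.2, 71.9 and 45.8 CPM in RT (log2 -1.03 ± 0.14 SE, adjusted p = 0.00257). Cd80, a ligand of CD28 and CTLA-4, was at 10.7, 7.86, 10.5 and 6.28 CPM in NT and 34.3, 26.9, 36.1 and 23.4 CPM in RT (log2 1.80 ± 0.21 SE, adjusted p = 0.000568). Socs2, a brake on cytokine signaling, rose by a log2 of 1.12 ± 0.17 SE, Vsir (VISTA) by 0.62 ± 0.10 SE and Cd274 by 0.63 ± 0.14 SE, and all 5 kept their call in the 14 alternatives. The rule for largest rises also gave Il4, the type 2 cytokine, at 3.46, 0.267, 1.502 and 0.299 CPM in NT and 30.3, 12.4, 8.502 and 30.2 CPM in RT (adjusted p = 0.027). Cox6b2 was at 0.75 to 1.39 CPM in NT and 15.1 to 27.3 CPM in RT (log2 4.03, adjusted p = 4.54e-06).

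Within classes edgeR called 15 of 51 interferon-stimulated genes in T cell-like barcodes, 6 of 57 in monocyte-like and 1 each in NK cell-like (Mx1, of 47), macrophage-like (Slfn5, of 57) and cDC-like barcodes (Gbp2, of 51). In the same order these are 29.4%, 10.5%, 2.13%, 1.75% and 1.96%, beside 3.81%, 0.318%, 1.63%, 1.1% and 0.2% of all genes called higher there. The NK cell-like and macrophage-like counts of 1 gene each are near the share of all genes. In cDC-like barcodes DESeq2 called 14 of the 51, and 29 had an unadjusted p below 0.05. The larger cluster of that class also raised pDC markers, and the part of pDC in these values was not tested. In neutrophil-like barcodes none of 51 was called by edgeR (11 at an unadjusted p below 0.05, 0 by DESeq2). Median log2 fold changes of the list were 0.29 in T cell-like, 0.53 in monocyte-like, 0.11 in NK cell-like, 0.29 in macrophage-like, 0.90 in cDC-like and 0.33 in neutrophil-like barcodes. The list's summed level was highest in neutrophil-like barcodes, 17695 to 28357 CPM in NT and 25202 to 36022 CPM in RT, and next in monocyte-like barcodes, 10059 to 16873 CPM in NT and 15558 to 23580 CPM in RT. Both ranges overlap between groups. In cDC-like barcodes it was 4277 to 7678 CPM in NT and 8114 to 14515 CPM in RT, and in T cell-like barcodes 2803 to 4103 and 4112 to 4523 CPM, without overlap. Gbp2, an interferon-induced GTPase chosen after its values were seen, in cDC-like barcodes was at 159.8, 155.3, 147.4 and 165.2 CPM in NT and 552.4, 271.1, 525.2 and 513.5 CPM in RT (log2 1.56 ± 0.21 SE, adjusted p = 0.0213). Its call was lost without NT replicate 4, RT replicate 3 or RT replicate 4 or at Leiden resolution 2 (highest adjusted p = 0.168).

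In monocyte-like barcodes Apoe, a lipid carrier of mature macrophages chosen after its values were seen, was at 1650, 1408, 2145 and 1337 CPM in NT and 1063, 820.6, 824.1 and 735.5 CPM in RT (log2 -0.93 ± 0.15 SE, adjusted p = 0.0276), lost without NT replicate 3 (adjusted p = 0.102). Cd36, a scavenger receptor, was at 139.0, 68.6, 124.5 and 113.1 CPM in NT and 61.9, 49.4, 43.5 and 30.2 CPM in RT (log2 -1.33, adjusted p = 0.0276), lost without NT replicate 3 or RT replicate 3 (highest adjusted p = 0.149). This class joins a cluster led by Chil3 and Lyz2 with one led by Ace and Ear2, and the first made up 74.6% of the class in NT and 91.7% in RT. Cd36 was among the leading genes of the second, which made up 25.4% in NT and 8.26% in RT. The part of this shift in these falls was not tested. In cDC-like barcodes Car2, a carbonic anhydrase, was at 13.3, 7.06, 6.70 and 3.70 CPM in NT and 64.8, 48.7, 47.5 and 47.3 CPM in RT (log2 2.91, adjusted p = 0.00983).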

How the data were processed

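The deposited matrices, 1 per library, hold UMI counts for each gene in each barcode. Per the submitters' processing notes and the methods, the authors sequenced Chromium 3' version 3.0 libraries and used bcl2fastq 2.20.0 and Cell Ranger 3.1.0 with mm10. An aggregated matrix was not used, and no further cell filter was applied. Of 18835 Panc02-SIY barcodes, 18136 remained after each repeated string was kept only in the library with the most UMIs.

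Library sums were tested with edgeR 4.0.16 in R 4.3.3, after filterByExpr and TMM scaling, by a robust quasi-likelihood fit with 1 coefficient per group and no replicate block. CPM of genes are TMM-scaled, and summed CPM of lists use library totals. SE is the log2 fold change over the root of F. Barcodes were clustered with scanpy 1.11.5 (2000 variable genes, 30 principal components, 20 neighbors, Leiden resolution 1), and clusters were named where at least 3 markers were raised. Doublets were kept, and an alternative removed 908 barcodes with the highest Scrublet scores. Class shares were compared by two-sided exact permutation, adjusted over 10 classes. Alternatives covered scaling, filters, depth, DESeq2 1.42.0, clustering and each library left out.

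Named genes were the 10 largest rises and falls with non-overlapping groups and at least 10 CPM, up to 4 called genes a direction per list, genes fixed by name, and within classes 5 a direction and the p53 list. Isg15, Mcm5, Irf9, Ccl5, Gzmb, Apaf1, Fas, Bax, Bbc3, Sesn2, Xpc, Ddb2, Rrm2b and Ppm1d over all barcodes, members that complete a count, and the genes so marked in the text were chosen after their values were seen. The members and lists were chosen with earlier results of these data known. Results for some items are not reported here. Gene positions are from GENCODE M21 (GRCm38).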

Additional observations from a re-analysis of the deposited data

Results flagged for a closer look

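Of 194 groups of 4 libraries checked, 14 had 1 library far from the other 3, and chance gives about 1 in 20. RT replicate 4 was that library in 5 of them. It was highest for Ccl12 (19.15 CPM, next 10.04 CPM), Hist1h2bj (4.078 CPM, next 1.552 CPM) and fibroblast-like barcodes (1.388%, next 0.4861%), and lowest for Satb1, a chromatin organizer of lymphocytes (212.8 CPM, next 361.5 CPM), and neutrophil-like barcodes (7.773%, next 14.75%). Other RT libraries stood apart for Cd300lf (replicate 2, 113.2 CPM, next 159.2 CPM), Ifng (replicate 2, 447.5 CPM, next 237.2 CPM), H2-DMb2 (replicate 3, 29.74 CPM, next 19.42 CPM) and Hsph1 (replicate 3, 22.68 CPM, next 27.85 CPM). Among NT libraries, replicate 4 was highest for the ribosomal gene Rplp0 (2704 CPM, next 1941 CPM). NT replicate 3 was highest for the collagen gene Col1a1 (140.3 CPM, next 22.14 CPM) and for Stat2 (44.42 CPM, next 42.27 CPM). NT replicate 1 was lowest for Mcm7 (58.41 CPM, next 89.48 CPM) and for T cell-like barcodes (30.1%, next 34.74%).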

How the results depend on the processing

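The 1399 calls over all barcodes were 747 with barcodes thinned to at most 2000 UMIs, 771 at an adjusted p below 0.05, 809 with a log2 fold change above 0.58, and 399 to 1711 with 1 library left out. Calls ran from 295 to 1487 in T cell-like, 106 to 513 in NK cell-like, 55 to 319 in macrophage-like, 4 to 46 in monocyte-like, 1 to 362 in cDC-like and 0 to 33 in neutrophil-like barcodes with 1 library left out. cDC-like barcodes gave 109 calls with DESeq2, 2 at Leiden resolution 2 and 204 without the filter on low counts. Monocyte-like barcodes gave 274 without that filter. Neutrophil-like barcodes gave 37 with DESeq2, 155 without the filter and 18 without Scrublet doublets. The cause was not tested.

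The difference in the share of cDC-like barcodes reversed to -0.5375 points at Leiden resolution 2 and ran from -0.1173 to 0.7063 with 1 library left out (-0.05056 without RT replicate 3). That of mast cell or basophil-like barcodes reversed to -0.08101 points with 10 principal components and ran from -0.09657 to 0.1562 with 1 library left out (-0.03155 without RT replicate 4). Neither share was called, and with 10 principal components B cell-like and eosinophil-like barcodes gave no value. Of 252 comparisons across alternatives, 190 kept their direction and size or call.

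Libraries with the same replicate number had correlated deviations in 3 of 4 numbers (0.381, -0.156, 0.343 and 0.74), so the numbers were not taken as pairs, although libraries of 3 of the 4 numbers matched best with their own number. With a replicate block the calls were 2610 over all barcodes, 1750 in T cell-like, 570 in NK cell-like, 908 in macrophage-like, 99 in monocyte-like, 152 in cDC-like and 98 in neutrophil-like barcodes. Of the 30 G2 and mitosis genes, none called without the block, all 30 were called lower with it, among them Mki67 (adjusted p = 0.0252 by edgeR) and Top2a (adjusted p = 0.0174 by edgeR), and the S phase count went from 19 to 29 of 30 and the DNA repair count from 7 to 15 of 35.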
